A study of Mus musculus with 18 samples.

Results

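This account follows 8 genes of retinoid handling and its regulator Isx through the first days of mouse intestinal organoid culture. They are Isx, Scarb1, Rbp2, Lrat, Aldh1a1, Crabp2, Rbp4 and Ttr, taken by symbol from a table of 24116 genes. All 8 were found, and 7 reached 1 RPKM in at least 3 libraries, the exception being Crabp2. RPKM, the reads of a gene scaled to its length and to the reads of its library, is a level that can be compared between genes. The genes were selected on their known role and on their RPKM over the 6 days, which an earlier look at these data had shown, so those levels are described here without a test.

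Organoids, epithelial structures grown in culture from intestinal cells, were sampled at days 0, 1, 2, 3, 4 and 5, with 3 libraries a day and 18 in all. The organoids of all groups were wild-type C57BL/6, from mice aged 8 weeks, and each library pooled 30 wells. At every time the culture medium had R-spondin, Noggin, EGF and B27 supplement, with 20% Wnt3a-conditioned medium and 10 µM of the ROCK inhibitor Y-27632 up to day 3, and 3 µM of the GSK3 inhibitor CHIR99021 up to day 1. Day and medium therefore cannot be told apart, and the labels do not give the retinoid content of the supplement. Replicate 1 was left without DNase at every day (6 libraries, against 12 treated) and is titled mouse 1. The titles give mouse 3 for replicate 3, and mouse 2 for replicate 2 except at days 1 and 2, where they give mouse 1. The 3 libraries of a day come from 2 or 3 animals' lines, so p-values measure the spread between these few lines and wells.

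Dietary vitamin A, eaten as retinyl esters or as carotenoids, is taken up by the absorptive enterocyte. SCARB1 takes carotenoids and other lipids up at the cell membrane, and BCO1 cleaves beta-carotene to retinal. RBP2 binds retinol and retinal inside the enterocyte, LRAT esterifies retinol for export in chylomicrons, and ALDH1A1 oxidises retinal to retinoic acid, the ligand of the RAR nuclear receptors. ISX, an intestine-specific homeodomain protein whose gene responds to retinoic acid, is known as a repressor of Scarb1 and Bco1. RBP4 and TTR form the retinol carrier of blood, made mainly by the liver, and CRABP2 carries retinoic acid to its receptor.

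Implied depth was 43010000 to 53930000 reads a library, and 9953 to 10758 genes reached 1 RPKM. The 8 epithelial markers (Epcam, Cdh1, Vil1 and others) all exceeded 1 RPKM at every day, with sums of 2246 to 7235 RPKM. Sums were at most 2.24 RPKM for 9 mesenchymal markers, with Dcn and Lum at 0 in every library, 0.24 for 5 endothelial and 7.77 for 8 immune markers. The sum of 12 enterocyte markers (among them Alpi, Fabp1, Apoa4 and Sis) differed widely within a day. Day 3 replicate 2 and day 4 replicate 3 had the lowest of their days, 2284 and 3338 RPKM, against 9277 and 4513 in the other day 3 libraries and 23599.96 and 12042 in the other day 4 libraries. Day 0 replicate 1 had the highest epithelial marker sum of its day (3739 RPKM, against 2259 and 2246). These 3 libraries were therefore also left out together, an alternative chosen after seeing the data. Other libraries that stood apart were kept in it, such as day 2 replicate 2, with an enterocyte sum of 9479 RPKM against 2493 and 2238. In bulk RNA, fewer cells of a type and less RNA per cell cannot be told apart.

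The promoters of Isx, of Bco1, the cleavage enzyme that ISX is known to repress, and of Rbp2, the most abundant of the 8 genes, are shown because the results below turn on these genes. Each is the 250 bases before the annotated start in RefSeq's GRCm38.p6, 5′ to 3′ on the gene's strand. Capitals mark matches, on either strand, to the motifs searched.
Isx, chr8:74872924-74873173 (+): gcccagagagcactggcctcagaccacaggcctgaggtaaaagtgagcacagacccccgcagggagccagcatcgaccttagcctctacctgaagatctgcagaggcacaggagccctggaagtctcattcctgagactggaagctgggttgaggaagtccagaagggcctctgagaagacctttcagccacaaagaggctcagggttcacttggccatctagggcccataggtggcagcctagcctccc
Bco1, chr8:117095615-117095864 (+): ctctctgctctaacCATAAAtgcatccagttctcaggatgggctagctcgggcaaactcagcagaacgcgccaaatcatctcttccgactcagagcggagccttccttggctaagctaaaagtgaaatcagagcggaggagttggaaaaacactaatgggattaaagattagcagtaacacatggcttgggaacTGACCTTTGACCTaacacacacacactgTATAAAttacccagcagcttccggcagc
Rbp2, chr9:98490287-98490536 (+): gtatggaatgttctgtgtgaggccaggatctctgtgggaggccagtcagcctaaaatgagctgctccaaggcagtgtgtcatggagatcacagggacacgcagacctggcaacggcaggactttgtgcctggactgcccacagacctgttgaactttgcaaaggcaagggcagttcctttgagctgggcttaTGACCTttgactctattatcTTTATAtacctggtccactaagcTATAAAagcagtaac

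The letters searched were AGGTCA or TGACCT (the half-site of RAR, RXR and related nuclear receptors, in 14% of 32851 promoter windows of the same length), and TTTATG or CATAAA (the core bound by the intestinal factor CDX2, 10.8%). TAATTA, a homeodomain core that reads the same on both strands, was in 4.84%, and TATAAA or TTTATA in 12.4%. None of these letters was in the Isx window. The Bco1 window held CATAAA 236 to 231 bases before the start, TATAAA at 28 to 23, and TGACCT at both 56 to 51 and 49 to 44. That pair is a direct repeat of the half-site with 1 base between its copies, and such a repeat of AGGTCA with any 1 base between, searched on both strands after the Bco1 sequence was seen, was in 11 windows or 0.0335%. The Rbp2 window held TGACCT at 58 to 53, TTTATA at 38 to 33 and TATAAA at 15 to 10 bases before the start. A match describes the letters only. Of the 8 genes, 5 had an entry in the promoter table. Scarb1, Crabp2 and Ttr had none.

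Isx (Entrez 71597, chromosome 8, 74873174 to 74893506, GRCm38.p6) was near the detection limit at day 0. Its day 0 values were 0.0551, 0.0231 and 0.0729 RPKM in replicates 1, 2 and 3, which stand for 5, 2 and 6 reads, 13 in all (exact Poisson 95% interval 6.92 to 22.2, for counting error only). At day 1 they were 0.393, 1.56 and 0.173 RPKM, or 38, 124 and 14 reads. All 3 day 1 libraries lay above all of day 0, although none came to more than 1.56 RPKM. At day 2 the values were 5.31, 12.1 and 36.3 RPKM, and at day 3 they were 83.7, 15.7 and 67.7. Day 4 gave 145, 78.9 and 72.5 RPKM, and day 5 gave 58.2, 133 and 144. The means were 0.0504 ± 0.0252, 0.71 ± 0.747, 17.9 ± 16.3, 55.7 ± 35.6, 98.7 ± 39.9 and 112 ± 46.5 RPKM from day 0 to day 5 (SD, n = 3 here and for every day mean below).

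The day means of Isx followed the days in order, but only the steps from day 0 to day 1 and from day 1 to day 2 separated all libraries. The neighbouring days 2 and 3, 3 and 4, and 4 and 5 overlapped. The day 5 mean was 157-fold that of day 1 and 2215-fold that of day 0, the latter resting on the 13 day 0 reads. The day 1 mean was carried by replicate 2, without which the day 5 mean was 394-fold that of day 1. In log2(RPKM + 1), where a low gene's change comes out too small, day 5 exceeded day 1 by 6.02 (SD of the difference 0.93) and day 0 by 6.64 (SD 0.71). With a pseudocount of 0.1 in place of 1 the day 5 to day 0 difference was 9.44. Without day 3 replicate 2, whose 15.7 RPKM was the lowest of days 3 to 5, the day 3 mean was 75.7 RPKM, and without day 4 replicate 3 the day 4 mean was 112.

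Scarb1 (Entrez 20778, chromosome 5, 125277087 to 125341094) had the opposite course. It was at 25.3, 37.2 and 36.5 RPKM at day 0, and at 32.6, 30.9 and 44.8 at day 1. Day 2 gave 28, 34.1 and 22.8 RPKM and day 3 gave 17.2, 24.4 and 14.4. At day 4 the values were 4.04, 11.7 and 9.75 RPKM, and at day 5 they were 8.65, 8.38 and 5.78. Every library of days 4 and 5 lay below every library of days 0 to 3. From the lowest day to the highest the means were 7.6 ± 1.59 (day 5), 8.5 ± 3.99 (day 4), 18.7 ± 5.18 (day 3), 28.3 ± 5.67 (day 2), 33 ± 6.72 (day 0) and 36.1 ± 7.55 RPKM (day 1). Of these neighbours, only days 4 and 3 did not overlap. The day 1 mean was 4.75-fold that of day 5, a difference of -2.11 (SD 0.40) on the log2(RPKM + 1) scale for day 5 against day 1. Between days 0 and 1 the difference was 0.13 (SD 0.42), and its sign changed in 4 of 24 alternatives.

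Bco1 was tested over the days with the wider list of pathway genes described further on, which was also drawn up with earlier results of these data known but was taken by role. It was low, at 2.42, 1.79 and 1.47 RPKM at day 0. At day 1 it was at 2.66, 4.76 and 18.75 RPKM, where 1 library, replicate 3, stood far above the others. At day 2 it was at 4.6, 12.04 and 1.92 RPKM, and at day 3 at 6.95, 2.8 and 1.63. Days 4 and 5 gave 0.725, 2.36 and 1.07 RPKM, then 1.55, 1.98 and 0.537. Bco1 fell from 8.73 ± 8.75 RPKM at day 1 to 1.36 ± 0.742 at day 5 (log2 difference -1.72 ± 0.60 SE, limma adjusted p = 0.0434). The call was lost in 13 of 27 alternatives, with adjusted p up to 0.172 without day 1 replicate 3. Day 1 against day 0 gave 1.38 ± 0.60 (adjusted p = 0.12), day 5 against day 0 gave -0.34 (adjusted p = 0.678), and the F test over all days gave an adjusted p of 0.107.

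**Figure D1:**
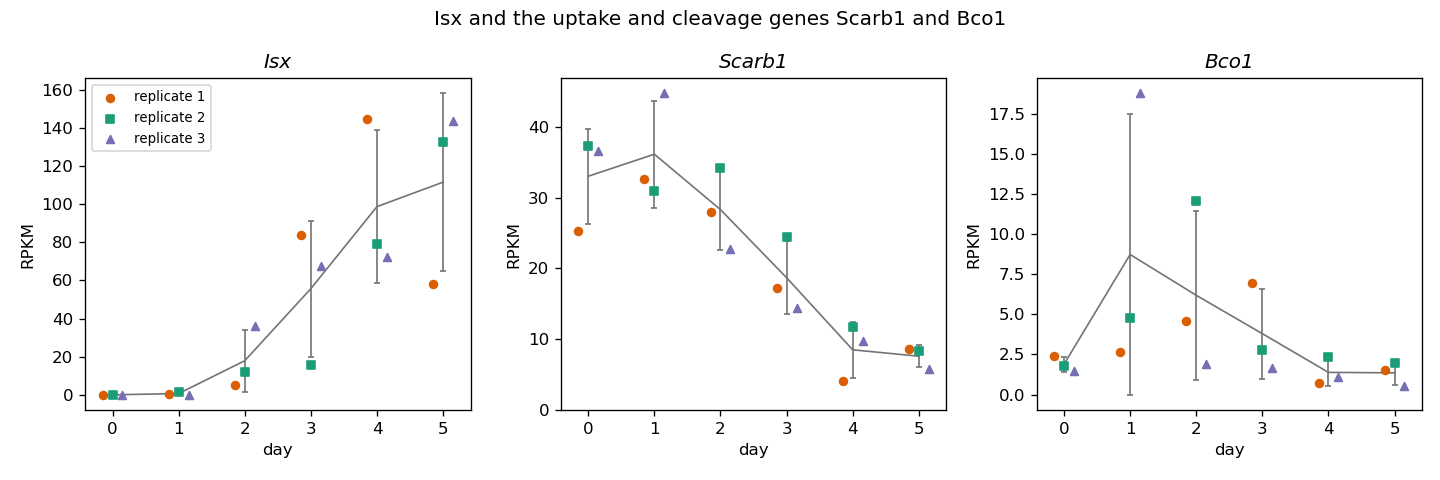
RPKM of Isx, Scarb1 and Bco1 (y axes, linear and different for each gene) by day (x axis), with 1 point per library, a line through the day means and bars of 1 SD. Isx lies at 0.0231 to 1.56 RPKM on days 0 and 1 and at 58.2 to 144 on day 5, while Scarb1 lies at 22.8 RPKM or above on days 0 to 2 and at 11.7 or below on days 4 and 5, and the highest Bco1 value, 18.75 RPKM, is day 1 replicate 3.

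As a share of its highest day mean, Isx was at 0.0452%, 0.636%, 16.1%, 49.9%, 88.5% and 100% from day 0 to day 5. The shares for Scarb1 were 91.4%, 100%, 78.3%, 51.7%, 23.5% and 21.1%, and those for Bco1 were 21.7%, 100%, 70.9%, 43.5%, 15.9% and 15.5%. From day 1 on, the means of Isx and Scarb1 thus ordered the days in reverse of each other. For Bco1 the place of day 1 rested on replicate 3, without which its mean was 3.71 RPKM, below the 6.18 of day 2. At day 0 Isx and Bco1 were both low while Scarb1 was close to its maximum. The ratio of Isx to Scarb1, both in RPKM, averaged 0.0016 ± 0.000852, 0.0221 ± 0.0249, 0.713 ± 0.768, 3.4 ± 2.39, 16.7 ± 16.6 and 15.8 ± 9.07 (SD, n = 3). At day 4 it ranged over 6.73 to 35.8, and its average was 7.09 without replicate 1. Without replicate 2 the day 1 average was 0.00796, and without replicate 3 that of day 2 was 0.272. Within a day, the library with the highest Isx was the one with the lowest Scarb1 on 4 of 6 days, and the one with the lowest Bco1 also on 4 of 6. For Bco1 these days included day 0, where the order of Isx rested on 5, 2 and 6 reads. On day 3 Isx and Bco1 were both highest in replicate 1. Across the 18 libraries the Pearson correlation of log2(RPKM + 1) between Isx and Scarb1 was -0.86, a description of libraries that share their day.

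Rbp2 (Entrez 19660, chromosome 9, 98490537 to 98509771), the enterocyte's retinol carrier, was the highest of the 8 genes on every day. Its values were 104.6, 146 and 71.1 RPKM at day 0, and 598, 1371 and 1902 at day 1. At day 2 they were 632, 2948 and 612 RPKM, and at day 3 they were 2353, 696 and 1388. Day 4 gave 4550.4, 3082 and 848 RPKM and day 5 gave 2991, 1722 and 1923. Every library from day 1 on exceeded every day 0 library. In ascending order the means were 107 ± 37.6 (day 0), 1291 ± 656 (day 1), 1397 ± 1343 (day 2), 1479 ± 832 (day 3), 2212 ± 682 (day 5) and 2827 ± 1865 RPKM (day 4), and all neighbours above day 0 overlapped. Day 1 was 12-fold above day 0 by the means, or 3.48 (SD 1.00) on the log2(RPKM + 1) scale. Day 5 against day 1 was 0.89 (SD 0.96) with overlapping libraries, and without replicate 2 the day 2 mean was 622 RPKM. Rbp2 had thus reached 45.7% of its highest mean at day 1, when Isx was at 0.636%.

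Aldh1a1 (Entrez 11668, chromosome 19, 20492583 to 20643463) came later than Rbp2. It was at 26.4, 20.5 and 7.36 RPKM at day 0 and at 40.4, 32.9 and 96.1 at day 1. Day 2 gave 53.7, 332 and 31.4 RPKM, and day 3 gave 549, 67.6 and 227. At day 4 it was at 999, 869 and 191 RPKM, and at day 5 at 472, 433 and 428. The spread was widest at days 2 to 4 and narrow at day 5. Its means, 18.1 ± 9.74, 56.4 ± 34.5, 139 ± 168, 281 ± 245, 686 ± 434 and 444 ± 23.9 RPKM from day 0 to day 5, made day 1 only 8.22% of the highest. In ascending order (days 0, 1, 2, 3, 5 and 4) only days 0 and 1 did not overlap. Day 5 exceeded day 0 by 24.6-fold by the means, 4.71 (SD 0.91) on the log2(RPKM + 1) scale, and day 1 by 7.87-fold, 3.11 (SD 0.81), or 12.1-fold without day 1 replicate 3. Without day 2 replicate 2 the day 2 mean was 42.6 RPKM, and without day 3 replicate 1 that of day 3 was 148. Aldh1a7, a closely related gene whose reads the counting could have split from Aldh1a1, ordered the 3 libraries the same way on days 0 to 3. Without day 4 replicate 3 the day 4 mean of Aldh1a1 was 934 RPKM, and that of Rbp2 was 3816.

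Within a day, Rbp2 and, on most days, Aldh1a1 were highest in the library with the most enterocyte marker RNA. The sum of the 12 markers was 1275, 1369 and 1003 RPKM at day 0, 2365, 2927 and 5843 at day 1, and 2493, 9479 and 2238 at day 2. It was 9277, 2284 and 4513 RPKM at day 3, 23599.96, 12042 and 3338 at day 4, and 19331, 14940.3 and 17219 at day 5. Rbp2 ordered the 3 libraries as this sum did on 6 of 6 days. Aldh1a1 was highest in the same library as the sum on 5 of 6 days and in the same order on days 2, 3 and 4. Isx was highest in the same library as the sum on 2 of 6 days and in the same order on days 3 and 4. It was in the opposite order on day 0, where its order rested on 5, 2 and 6 reads. At day 1, replicate 3 had the highest enterocyte sum, 5843 RPKM, and the lowest Isx, 0.173 RPKM. The part of the enterocyte markers in these results was not tested.

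Divided by the enterocyte sum, Rbp2 averaged 0.0866 at day 0, 0.349 at day 1, 0.279 at day 2, 0.289 at day 3, 0.234 at day 4 and 0.127 at day 5. Per unit of these markers its average was thus highest at day 1, where replicate 2 was at 0.468. The day 1 libraries, at 0.253 to 0.468, overlapped those of day 2 (0.254 to 0.311), day 3 (0.254 to 0.308) and day 4 (0.193 to 0.256). The same ratio for Aldh1a1 averaged 0.0143, 0.0149, 0.0235, 0.0464, 0.0572 and 0.0261 from day 0 to day 5, highest at day 4. Its day 4 libraries, at 0.0423 to 0.0721, overlapped those of day 3, at 0.0296 to 0.0592.

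**Figure D2:**
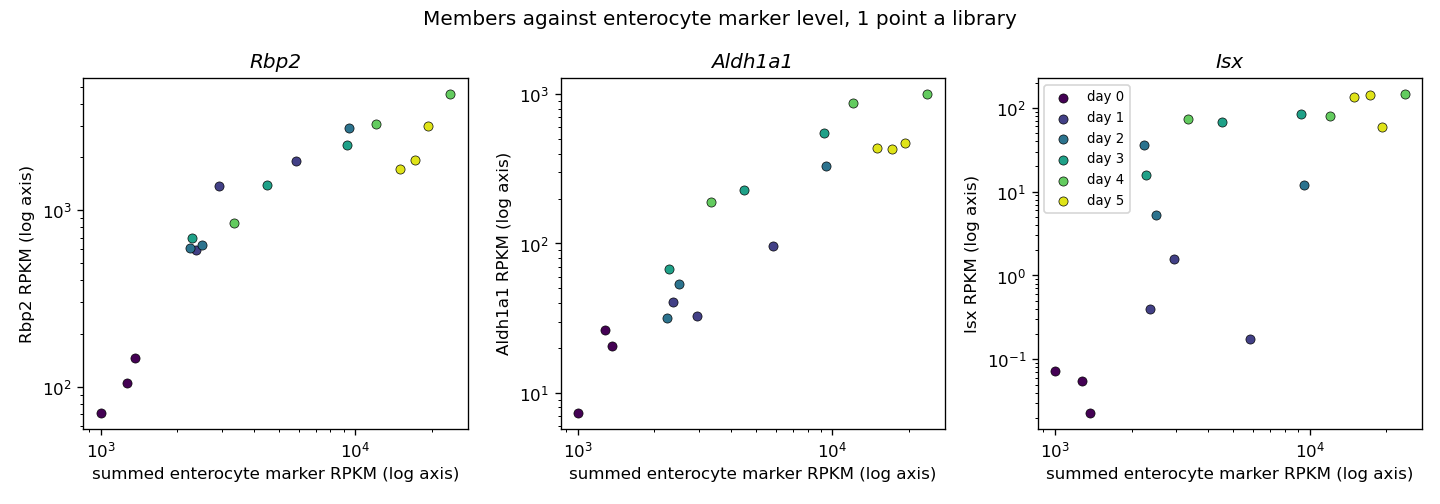
RPKM of Isx, Rbp2 and Aldh1a1 (y axes, log scale) against the summed RPKM of 12 enterocyte markers (x axis, log scale), 1 point per library coloured by day. Rbp2 follows the marker sum within each day, whereas at day 1 the library with the highest sum, 5843 RPKM, has the lowest Isx, 0.173 RPKM.

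Lrat (Entrez 79235, chromosome 3, 82892582 to 82903974), the esterifying enzyme, stayed low, at 0.251 to 2.2 RPKM over the 18 libraries. It was at 1.9, 1.89 and 1.95 RPKM at day 0, and at 1.75, 0.553 and 0.989 at day 1. Day 2 gave 1.42, 1.23 and 0.637 RPKM, day 3 gave 2.2, 0.251 and 0.771, day 4 gave 1.59, 1.65 and 0.904, and day 5 gave 2.18, 1.06 and 1.04. The day 0 values were the tightest of the course, and above all of day 1. Ordered by mean, days 3, 2, 1, 4, 5 and 0 overlapped at each step. At day 5 the mean was 1.42 ± 0.652 RPKM for Lrat and 2212 ± 682 for Rbp2.

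Crabp2 (Entrez 12904, chromosome 3, 87948693 to 87953372) was barely detected. Its values ran from 0 to 0.251 RPKM, and all 18 libraries together held 46 reads, with 3 or fewer in each of 14 libraries. Differences between days in Crabp2 were not detectable at this depth.

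Rbp4 (Entrez 19662, chromosome 19, 38116620 to 38125321), the plasma retinol carrier, was at 1.74, 0.224 and 2.18 RPKM at day 0 and at 1.5, 0.663 and 1.84 at day 5. Between these days it was at 0.939 RPKM or below in all 12 libraries, and the lowest value was 0.136 RPKM (day 4 replicate 2). The means were 1.38 ± 1.03 RPKM at day 0, 0.563 ± 0.374 at day 1, 0.41 ± 0.156 at day 2, 0.345 ± 0.219 at day 3, 0.435 ± 0.259 at day 4 and 1.34 ± 0.606 at day 5. In the order of the means (days 3, 2, 4, 1, 5 and 0) every pair of neighbours overlapped. Beyond neighbours, every day 5 library, at 0.663 RPKM or above, exceeded every library of days 2, 3 and 4, at 0.596 or below. Day 0 replicate 2, at 0.224 RPKM, was among the lowest libraries of the course.

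Ttr (Entrez 22139, chromosome 18, 20664209 to 20674326), the partner of RBP4 in blood, was at 55.7, 30.6 and 40 RPKM at day 0. At days 1 and 2 the values were 1.41, 1.74 and 1.63 RPKM, then 2.13, 0.729 and 1.93. Day 3 gave 3.29, 0.904 and 1.77 RPKM, day 4 gave 4.26, 6.05 and 4.02, and day 5 gave 10.1, 8.28 and 9.42. Days 1 to 3 overlapped, and day 4, day 5 and day 0 each lay wholly above the day below them in the order. The day 5 mean, 9.27 ± 0.918 RPKM, was 5.81-fold that of day 1 (1.98 on the log2(RPKM + 1) scale, SD 0.16) and 22% of that of day 0 (-2.03, SD 0.44).

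Other cell types known to transcribe Ttr or Rbp4 were looked at through marker lists. The sum of 13 enteroendocrine markers (Chga, Neurod1, Gcg and others) ranged over 118 to 391 RPKM at day 0, 174 to 250 at day 1, 100.7 to 116 at day 2, 95.3 to 126 at day 3, 99.1 to 165 at day 4 and 234 to 295 at day 5. The means of this sum were 285, 222, 110, 112, 125 and 257 RPKM from day 0 to day 5. Its day 1 values overlapped those of day 5, and those of day 0 only through day 0 replicate 2, at 118 RPKM. Ttr at day 1 was at 3.79% of its day 0 mean and Rbp4 at 40.8%. The sum ordered the libraries as Ttr did on 1 of 6 days (day 0) and in the opposite order on 1 (day 5). For Rbp4 the highest library was shared on 3 of 6 days. Its part in the result was not tested. The sum of 8 hepatocyte and yolk sac markers was 0.823 to 9.28 RPKM, with Afp at 0.275 to 8.5 RPKM. Alb stayed at 0.454 RPKM or below, and Ahsg, Fga and Fgb at 0.015 or below.

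**Figure D3:**
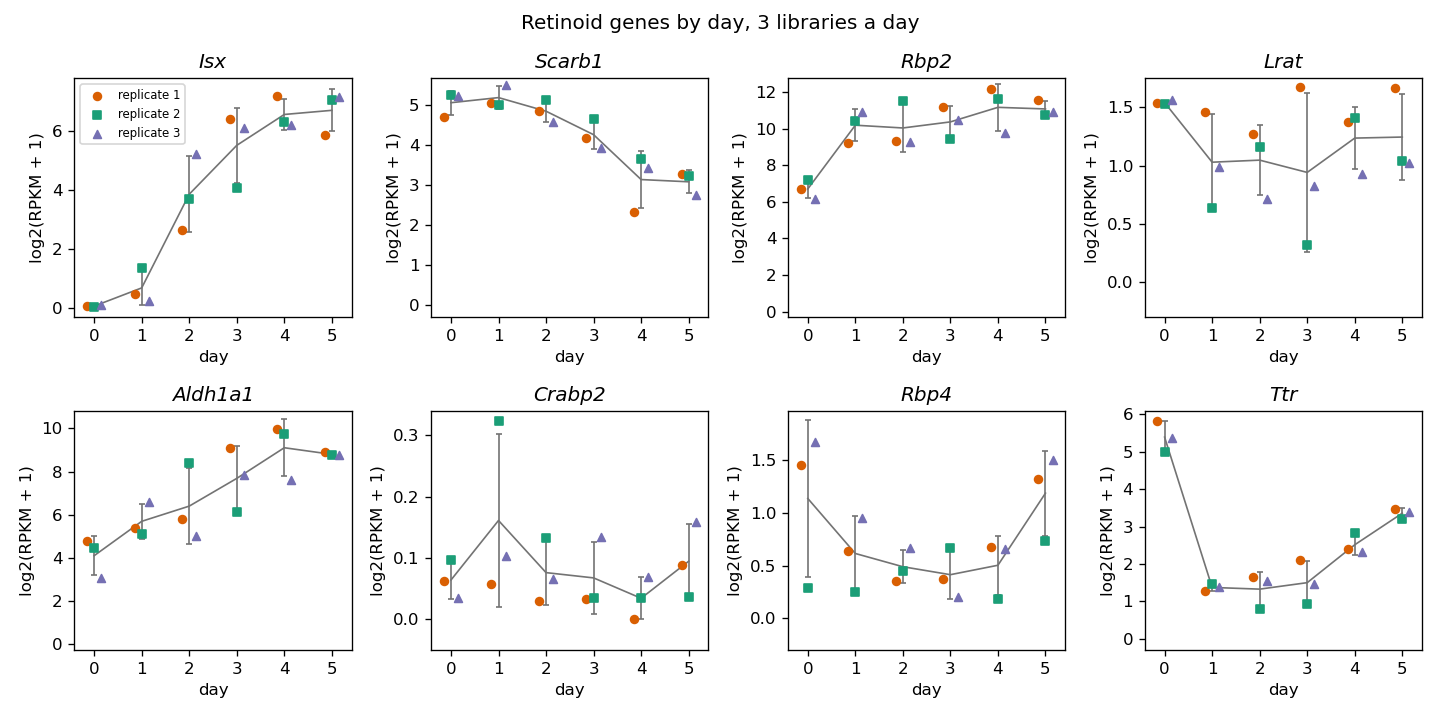
The 8 genes in separate panels, each with log2(RPKM + 1) on the y axis on its own scale and the day on the x axis, 3 libraries a day marked by replicate, a line through the day means and bars of 1 SD. Isx, Rbp2 and Aldh1a1 lie higher at day 5 than at day 0 in every library, Scarb1 and Ttr lie lower, and Lrat, Rbp4 and Crabp2 overlap.

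Between day 1 and day 0, 5 of the 8 genes had libraries that did not overlap (Isx, Rbp2 and Aldh1a1 higher at day 1, Lrat and Ttr lower), where 41.2% of all genes tested did not (21.6% higher and 19.6% lower). For day 5 against day 1 it was 4 of 8 (Isx, Aldh1a1 and Ttr higher, Scarb1 lower), against 52.9% of all genes (19% higher and 33.8% lower). For day 5 against day 0 it was 5 of 8 (Isx, Rbp2 and Aldh1a1 higher, Scarb1 and Ttr lower), against 54.1% (19.2% higher and 34.9% lower). The genes were chosen with these days in view, so nothing is read from the counts, and the comparisons share libraries.

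For each of the 8 genes, the most similar genes over the 18 libraries were taken by Pearson correlation of log2(RPKM + 1) among 8041 genes, as a description. Isx was closest to Gne (r = 0.910), Fmo5 (0.910) and Lgals9 (0.903). Scarb1 was closest to Pcsk6 (0.888), Tbc1d1 (0.885) and Rrm2 (0.867). The nearest to Rbp2 were Mep1b, the beta subunit of the brush border protease meprin (0.971), and the sulfotransferases Sult1b1 (0.970) and Sult6b2 (0.970). Aldh1a1 ran most closely with the aldo-keto reductase Akr1b7 (0.985), the monooxygenase Fmo5 (0.977) and Papss2, which makes the sulfate donor of sulfotransferases (0.973). Fmo5, near both Isx and Aldh1a1, had day means of 0.581, 4.53, 16.1, 36.6, 86.4 and 72.5 RPKM. For Ttr they were Ppm1b (0.942), Zfp395 (0.940) and Fgfr3 (0.936). The low genes had looser neighbours: Lrat had Amacr (0.847), Magt1 (0.842) and Gtpbp8 (0.835), Rbp4 had Sdsl (0.798), Pbxip1 (0.788) and Jund (0.777), and Crabp2 had Rnpepl1 (0.773), Rassf1 (0.704) and Snord65 (0.677).

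The rest of the pathway was followed in a list of 59 further genes, from carotenoid cleavage to the nuclear receptors, of which 58 were in the table and 36 were tested. Of the 22 not tested, 21 were under 1 RPKM in every library. These included the membrane retinol receptor Stra6 (at most 0.0139 RPKM), the receptor Rarb (0.0471), the retinoic acid hydroxylases Cyp26a1 (0.0381) and Cyp26b1 (0.145), and the retinal dehydrogenases Aldh1a2 (0.0103) and Aldh1a3 (0.372). Limma's F test over days called 20 of the 36 (55.6%, 24 at an unadjusted p under 0.05), against 25.3% of all genes tested. Day 1 against day 0 called 8, 22.2% against 18.6% of all genes. Of these, 2 were higher (9.54% of all genes were) and 6 lower (9.05%). Day 5 against day 1 called 24, of which 19 were higher and 5 lower, 66.7% against 27.8% of all genes (11.8% higher and 16.1% lower). Day 5 against day 0 called 11, with 10 higher and 1 lower, 30.6% against 24.4% (11.4% higher and 13% lower). The median log2 difference of the list was -0.27, 0.77 and 0.43 in these 3 comparisons, and that of all genes tested was -0.00, -0.15 and -0.17.

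The scaling shifted the median of all genes. For day 5 against day 1 quantile normalization brought it to -0.09, and rescaling by the median of ratios to -0.03. The enterocyte marker sum was 1216 ± 190.3 RPKM at day 0, 3712 ± 1867 at day 1 and 17163 ± 2196 at day 5, and its part in the list's counts was not tested. The 3 comparisons share day 0, day 1 or day 5 libraries. Within the 12 DNase-treated libraries the count for day 5 against day 1 was 14, where 15.1% of all genes tested were called. Leaving out replicate 2 of day 1 gave 11 (14.9% of all genes). Without replicate 1 of day 1 or of day 5 it was 14 (13.3% and 14.8%), and without replicate 3 of day 5 it was 15 (15.4%). The share of all genes was 27.8% with all libraries. Of the 24 calls, 11 held under every alternative tried, among them Adh1, Adh4, Adh7, Ces1d, Ces1e, Cyp2s1, Dhrs3, Dhrs4, Lipe and Rdh7, and the other 13 were all lost without day 1 replicate 2.

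Beside Bco1, the other carotenoid-cleaving enzyme, Bco2, which cuts off centre and acts in mitochondria, moved the other way. It rose from 6.86 ± 5.02 RPKM at day 1 to 48 ± 10.2 at day 5 (log2 difference 2.79 ± 0.78 SE, limma adjusted p = 0.0186). Its libraries were at 3.66, 4.27 and 12.65 RPKM at day 1 and at 56.2, 36.6 and 51.1 at day 5, with no overlap. The call was lost on leaving out replicate 1 or 2 of day 1 or replicate 1 or 3 of day 5, and when the untreated libraries were dropped (adjusted p up to 0.111). Against day 0 the rise was 3.12 (adjusted p = 0.0128).

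Of 13 tested enzymes that convert retinol and retinal into each other, 8 rose and 2 fell from day 1 to day 5. Adh1, a cytosolic alcohol dehydrogenase that oxidises retinol, was at 21.8, 22.1 and 79.3 RPKM at day 1 and at 2141, 1693 and 1756 at day 5. All day 5 libraries lay above all of day 1, with a log2 difference of 5.73 ± 1.00 SE (limma adjusted p = 0.00185). Adh4 was at 0.17, 0.0517 and 0.995 RPKM at day 1 and at 56.8, 81.9 and 74 at day 5 (5.72 ± 0.78, adjusted p = 0.000374). Rdh7, a microsomal retinol dehydrogenase, rose from 2.32 ± 1.42 to 112 ± 28.8 RPKM (5.15 ± 0.90, adjusted p = 0.00185). Adh7, Dhrs4 and Rdh11 rose by 1.86, 1.23 and 1.00. For Adh5 the difference was 0.41 (adjusted p = 0.0414), but the call was lost with the mouse as a block (adjusted p = 0.0671) and in 14 of 27 alternatives in all (up to 0.153, without day 1 replicate 2). Dhrs3, which reduces retinal back to retinol and is a known target of retinoic acid, was at 19.1, 11.8 and 12.3 RPKM at day 0, at 2.79, 1.84 and 3.94 at day 1 and at 25.1, 35.2 and 35.9 at day 5. It fell by 2.00 to day 1 (SE 0.49, adjusted p = 0.0108, but 0.0546 when only DNase-treated libraries were used) and rose by 3.12 to day 5 (adjusted p = 0.000901).

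Rdh10, the retinol dehydrogenase of the first oxidation step in embryos, had another course. It rose from 16.7, 12.7 and 10.1 RPKM at day 0 to 40, 61.8 and 44.1 at day 1 (1.81 ± 0.27 SE, limma adjusted p = 0.000505) and fell to 27.1, 27.4 and 18.9 at day 5 (-0.96, adjusted p = 0.0204). The second step was lost without day 1 replicate 2 or day 5 replicate 3 (adjusted p up to 0.0868). From day 1 to day 5 Rai14 also fell, by 0.91 (adjusted p = 0.0239, up to 0.0856 without day 5 replicate 1). Rdh13 differed by -0.38 (adjusted p = 0.04), a call lost with the mouse as a block (adjusted p = 0.0515) and in 12 of 27 alternatives in all (up to 0.281, with DNase-treated libraries only).

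Among 6 tested genes of ester synthesis and hydrolysis, 5 rose from day 1 to day 5. Dgat1, an acyltransferase that can esterify retinol beside its role in triglyceride synthesis, was at 66.1, 77.2 and 124.4 RPKM at day 1 and at 277.5, 252.4 and 251.9 at day 5 (1.59 ± 0.45 SE, limma adjusted p = 0.0193). That call was lost on leaving out replicate 1 or 2 of day 1, replicate 1 of day 5, or all untreated libraries (adjusted p up to 0.106). Lipe, hormone-sensitive lipase, rose from 2.01 ± 0.56 to 12.3 ± 1.72 RPKM (2.15 ± 0.32, adjusted p = 0.000598). The carboxylesterases Ces1d, Ces1f and Ces1e rose by 4.38, 3.01 and 2.83, as genes of 1 family whose reads the counting could have split. Ces1e had fallen by 2.63 from day 0 to day 1 (adjusted p = 0.00698).

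Cyp2s1, a cytochrome P450 able to hydroxylate retinoic acid, was the 1 gene of retinoic acid clearance tested. It fell from 19.6 ± 6.92 RPKM at day 0 to 3.84 ± 1.52 at day 1 (-2.08 ± 0.43 SE, limma adjusted p = 0.00382) and rose to 28.3 RPKM at day 5 (2.59 ± 0.43, adjusted p = 0.00117), and both calls held under every alternative. Stra6l, a membrane receptor for RBP4, was at 5.14, 14.1 and 12.3 RPKM at day 0 and at 2.59, 3.1 and 2.1 at day 1 (-1.58 ± 0.42, adjusted p = 0.0165, up to 0.0778 without day 0 replicate 2 or 3 or day 1 replicate 3). At day 5 it was lower than at day 0 (-1.35, adjusted p = 0.0306), a call lost in 6 of 27 alternatives (adjusted p up to 0.123, on leaving out replicate 1 of day 5). These were a pseudocount of 0.1, no filter, and leaving out replicate 2 or 3 of day 0 or replicate 1 or 2 of day 5. Rdh5 fell by 0.65 to day 1 (adjusted p = 0.01, but 0.0845 after quantile normalization and 0.0568 with DNase-treated libraries only) and Dhrs4 by 1.16. Cd36, a fatty acid receptor that also takes up carotenoids, rose by 2.06 from day 1 to day 5, and Rbp7 and Aldh1a7 by 1.44 and 2.20. These calls were lost in 5, 12 and 6 of 27 alternatives, with adjusted p up to 0.0768, 0.129 and 0.125.

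Of the 4 nuclear receptor genes tested, Rxra, the common partner of the RARs, rose from 13.1 ± 1.98 RPKM at day 1 to 24.6 ± 3.09 at day 5 (0.86 ± 0.26 SE, limma adjusted p = 0.0247). The call was lost on leaving out replicate 1 or 2 of day 1, any 1 of the day 5 libraries, or all untreated libraries (adjusted p up to 0.081). Rara had day means of 5.56 to 7.74 RPKM, Rarg of 0.854 to 2.37 and Rxrb of 17.2 to 18.6. The F test over days gave adjusted p-values of 0.198 for Rara, 0.168 for Rarg and 0.124 for Rxra. The 4 tested genes listed as retinoic acid responsive did not include Dhrs3, which was counted with the enzymes of retinol and retinal. Of these 4, only Rai14 was called from day 1 to day 5, as lower, while Dhrs3 rose by 3.12.

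**Figure D4:**
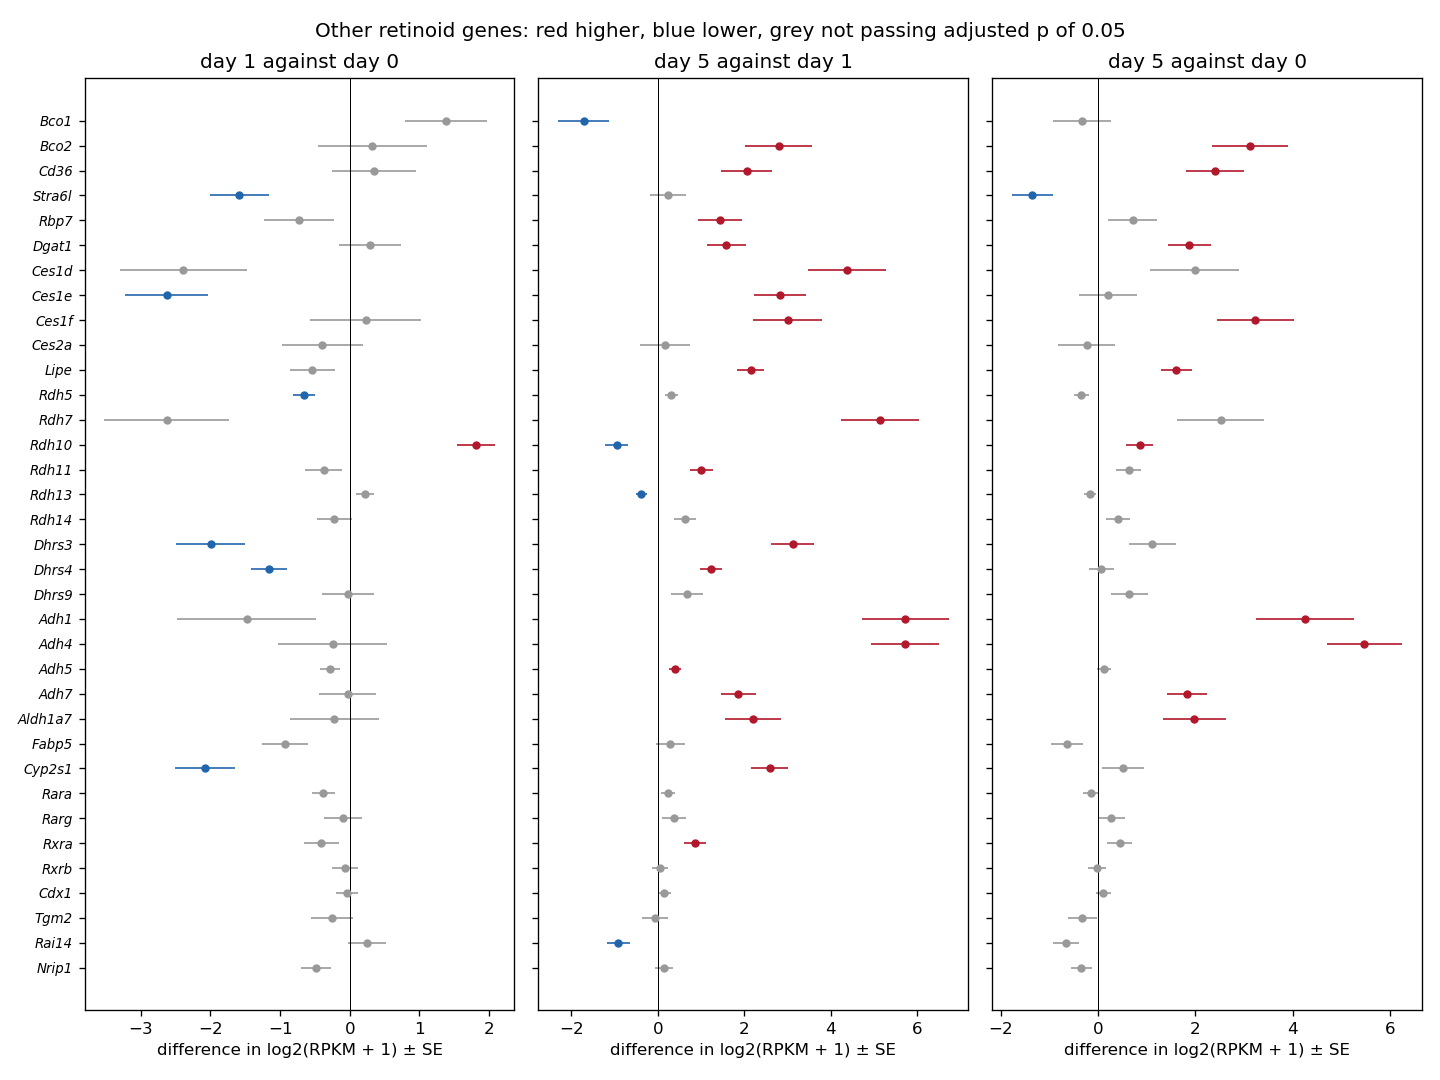
Difference in log2(RPKM + 1) with its SE (x axis) for the retinoid genes outside the 8, 1 row per gene, red where higher, blue where lower and grey where the adjusted p did not pass 0.05, for day 1 against day 0, day 5 against day 1 and day 5 against day 0. Of 36 genes tested, of which 1 is not drawn, 8, 24 and 11 pass, and the largest difference of day 5 against day 1 is that of Adh1, 5.73.

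The difference of replicate 1, from mouse 1 and without DNase, from replicates 2 and 3 does not depend on the days, so it was tested for the 8 genes too. Treatment and line largely coincide in it, since by the titles mouse 1 had both an untreated and a treated library only at days 1 and 2. There Lrat was at 1.75 RPKM untreated and 0.553 treated, then at 1.42 and 1.23, too few libraries for a test of the treatment within a line. Of the 7 genes tested, Lrat alone was called, as higher in replicate 1, against 11% of all genes tested (3.68% higher and 7.3% lower). It averaged 1.84 ± 0.314 RPKM (SD, n = 6) in replicate 1 and 1.08 ± 0.527 (n = 12) in replicates 2 and 3, a log2 difference of 0.49 ± 0.14 SE with a limma adjusted p of 0.0378. All 6 replicate 1 libraries are from 1 line by their titles, and the fit had no term for the mouse. The SE and p-value thus take libraries of 1 line as independent and do not measure a spread between untreated lines. Replicate 1 was the highest library on 4 of 6 days. The call was lost in 11 of 23 alternatives (adjusted p up to 0.142, without day 3 replicate 1). Adjusted p-values for the other 6 were 0.792 for Isx, 0.296 for Scarb1, 0.831 for Rbp2, 0.548 for Aldh1a1, 0.719 for Rbp4 and 0.22 for Ttr.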

How the data were processed

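RNA was measured in 18 libraries, 3 at each of 6 days. The deposited values are RPKM. Tools listed in the submitters' processing notes are STAR 2.5.2b, edgeR 3.20.5 and bcl2fastq 2.17, with build mm10 and no roles. Which annotation was used, whether strand was, and how reads matching several genes were handled is not given in the sources used here, and an unstranded count would mix overlapping genes. Library depth was recovered from the steps between low RPKM values, with GENCODE M21 exon lengths, where 265 to 314 genes a library gave 1 depth within a relative tolerance of 2e-05. Reads of the 8 genes came out whole within 0.001 of a read.

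Tests used limma 3.58.1 in R 4.3.3 (lmFit, eBayes with trend) on log2(RPKM + 1), with day as a factor over all 18 libraries, 2-sided. The 11111 genes that reached 1 RPKM in 3 or more libraries were tested, with Benjamini-Hochberg adjustment over these and calls at an adjusted p under 0.05. Symbols were matched to RefSeq (GRCm38.p6, the assembly of mm10) for coordinates and promoters. The limma fit was tested on simulated data, for day 1 against day 0 only.

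The 8 genes, the wider list and the marker lists were chosen with earlier results of these data known. The text names all 8, every gene of the wider list called over the days with some fixed others, and the 3 genes most correlated with each of the 8 among those with a day mean of at least 5 RPKM, leaving out pseudogenes and clone names. Tf and Rdh16f2 were not found by symbol. The wider list's counts include 1 gene whose values are not reported here. The mouse named in the titles pairs libraries. Deviations from the day means correlated with a median r of 0.143 over 47 pairs of the same mouse and -0.06 over 88 pairs of different mice, and no 2 libraries were identical (highest correlation 0.986). The alternatives were a pseudocount of 0.1, no filter or 5 RPKM, 2 rescalings, the mouse as a block, each library left out, DNase-treated libraries only and, for comparisons of 2 days, only those days in the fit.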

Additional observations from a re-analysis of the deposited data

How the results depend on the processing

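Shares in brackets are those of all genes tested that were called, with ranges over the same fits. Of the counts over the wider list, that of day 5 against day 1 was 24 (27.8%). It ranged over 11 to 25 with 1 library left out (13.3% to 35.7%), and was 14 in the 12 DNase-treated libraries (15.1%). That of day 5 against day 0 was 11 (24.4%), with a range of 6 to 13 (7.74% to 32%), the lowest without day 5 replicate 1. It was 6 in the DNase-treated libraries (10.8%) and 18 with only these days in the fit (37.5%). The F test gave 20 (25.3%), a range of 15 to 24 (14.3% to 45.5%), and 9 in the DNase-treated libraries (12.2%). Day 1 against day 0 gave 8 (18.6%) and a range of 6 to 10 (10.6% to 21.7%). The DNase-treated fit has 12 libraries in place of 18, and the cause of the other changes was not tested. With the mouse of the titles as a replicate block the 4 counts were 23, 12, 19 and 10 (34.5%, 27.1%, 30.5% and 19.3%). These counts were within 1.5 times of those above. Among named calls the block ended those of Adh5 and Rdh13. Day 0 replicate 1, day 3 replicate 2 and day 4 replicate 3 were left out together, a choice made after seeing the data. The 4 counts were then 23, 15, 25 and 11 (38.4%, 29.2%, 43.7% and 20.9%). For replicate 1 against the others (11%), the 1 call among the 8 genes became 0 without a filter (5.71%) and with a pseudocount of 0.1 (11.4%). The count ranged over 0 to 1 with 1 library left out (3.91% to 15.2%). With a filter of 5 RPKM it was also 0 (11.4%), but Lrat was then not among the genes tested. Of 64 calls of named genes, 27 held under every alternative and 37 were lost under 1 or more. The 20 calls of the F test have no direction, and none of the other calls reversed. Quantile normalization moved the day 5 to day 0 difference of Rbp2 from 4.37 to 3.71, and a pseudocount of 0.1 moved that of Isx from day 0 to day 1 from 0.62 to 2.03. Depth limits Isx at day 0, Rbp4 and Crabp2.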
